A study of Homo sapiens with 2 samples.

Results

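UCN2, VGF and NPTX1 encode secreted neuronal or peptide-hormone proteins, and these 3 genes were followed here among 14884 named genes in UACC62 cells, an established human melanoma line. They were taken by gene symbol from the table that names the probe sets, with 1 probe set each, and they were chosen by their lower signal in the array with FOSL1 siRNA. Their differences are therefore a description without a test. RNA came from 1 culture transfected with a non-targeting siRNA and 1 culture transfected with a siRNA specific to FOSL1, both collected on day 3, and each was hybridised to 1 whole-transcript array. No culture was left untransfected among these arrays. FOSL1 (FRA1) is a FOS family subunit of the transcription factor AP-1, and the series title places it in melanocyte reprogramming and transformation. With 1 array per condition there is no replicate error, and an effect of FOSL1 loss, an off-target effect of the siRNA and the variation between cultures cannot be told apart. In bulk RNA, fewer cells making a transcript and less transcript per cell cannot be told apart either.

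Neuropeptides and peptide hormones are made as precursors, cut by proprotein convertases, trimmed and often amidated in secretory vesicles, and released to act on receptors of neighbouring cells. UCN2 is the precursor of urocortin 2, a ligand of the corticotropin-releasing factor (CRF) family that acts mainly through the receptor CRHR2, which couples to cAMP. VGF is a granin-like precursor of several bioactive peptides, first known as a gene induced by nerve growth factor. NPTX1 is neuronal pentraxin 1, a secreted protein that helps to cluster AMPA-type glutamate receptors at synapses. Melanocytes and melanoma cells descend from the neural crest, which also gives rise to peripheral neurons.

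All values below are deposited probe set intensities, taken as log2, and a difference is the value with FOSL1 siRNA minus the value with control siRNA. A gene was counted as past the filter on dim genes when its mean log2 value was at least 8.02, the median of named genes, and 7442 genes passed, all 3 followed here among them. The targeted gene FOSL1 had 11.90 in the control array and 10.38 after its own siRNA, and the difference of -1.53 has the direction that the labels give. Each array had a median of 6.88 or 6.89 over all 53427 probe sets. Melanocyte markers were present, with 7 of 10 named markers past the filter. The summed signal of the named markers was 14.21 with control siRNA and 14.16 with FOSL1 siRNA on the log2 scale. This sum follows S100B, the brightest of them, with 13.18 and 13.09. Single markers differed in both directions. Of the 7 past the filter 4 were above 0 and 3 below, from -0.34 for TYR to 0.36 for MITF. PMEL, TYRP1 and GPR143 lay under the filter.

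UCN2 (Entrez gene 90226, probe set 16953454) gave 11.94 in the control array and 10.87 in the array with FOSL1 siRNA, both as log2 values. The difference was -1.07, a signal 2.10-fold lower, or 47.7% of the control signal. It ranked 2 from the lowest among the genes past the filter, next to FOSL1 itself. Both values were far above the filter, by 3.92 and 2.85 log2 units. Of the 824 genes whose mean lay within 0.5 log2 units of that of UCN2, 2 had a difference at least this low, UCN2 and FOSL1.

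NPTX1 (Entrez gene 4884, probe set 16849697) gave 9.88 in the control array and 9.07 after FOSL1 depletion on the log2 scale. The signal with FOSL1 siRNA was 1.76-fold lower, or 56.9% of the control, with a log2 difference of -0.81 and rank 7 from the lowest. Of the 2233 genes of similar mean, 2 were at least this low, counting NPTX1. Its value with FOSL1 siRNA lay 1.05 log2 units above the filter, the smallest margin of the 3 genes.

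VGF (Entrez gene 7425, probe set 17060824) gave 10.64 in the control array and 9.98 after FOSL1 depletion, a log2 difference of -0.66, a signal 1.58-fold lower, at 63.1% of the control and rank 28 from the lowest. Of 1720 genes of similar mean, 8 were at least this low, counting VGF. VGF thus had the difference smallest in size of the 3. The difference of UCN2 minus that of VGF was -0.41, and minus that of NPTX1 it was -0.26.

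**Figure D1:**
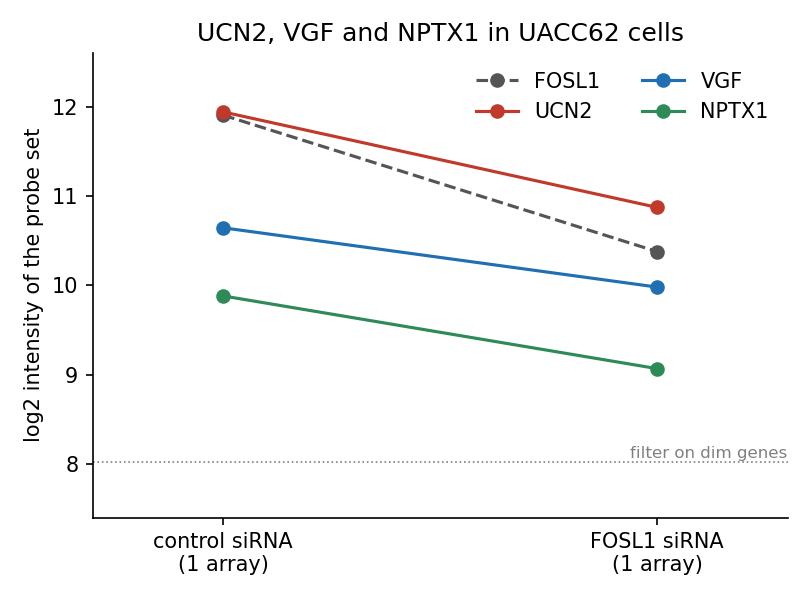
Log2 intensity (vertical axis) of UCN2, VGF, NPTX1 and the targeted gene FOSL1 in the array with control siRNA and the array with FOSL1 siRNA, 1 point per array. All 4 lines run downward, from 11.94 to 10.87 for UCN2, 10.64 to 9.98 for VGF and 9.88 to 9.07 for NPTX1, and stay above the filter on dim genes (dotted line, 8.02).

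All 3 genes were at least 1.5-fold lower, a size reached by 57 of the 7442 genes (0.766%), and this count restates how they were chosen. UCN2 also passed 2-fold, which 3 genes (0.0403%) did toward lower values. When the trend on gene span described below was removed, VGF was at -0.58, just under 1.5-fold, and UCN2 at -0.98, just under 2-fold. In the other direction 84 genes (1.13%) were at least 1.5-fold higher. Of the 6928 protein-coding genes past the filter, 33 (0.476%) were at least 1.5-fold lower. None of the 3 genes has a second named probe set, so no difference could be set against another measurement of the same gene. As a scale for their size, the SD between the 2 brightest probe sets of 1 gene was 0.169. It was taken over the 213 genes with 2 or more probe sets past the filter. This spread arises within this pair of arrays and leaves out the variation between cultures.

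**Figure D2:**
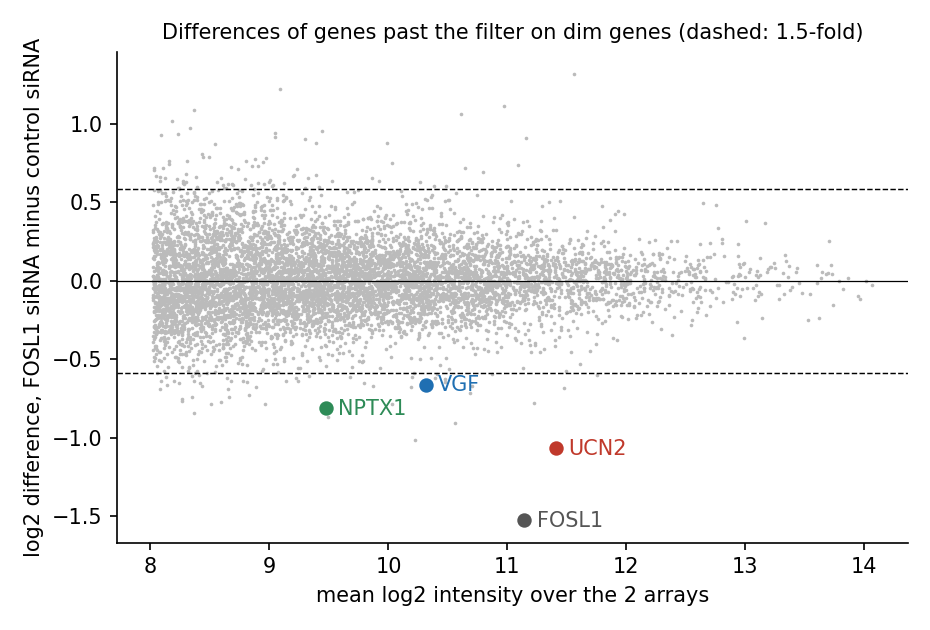
Log2 difference (FOSL1 siRNA minus control siRNA) against mean log2 intensity for the 7442 genes past the filter, 1 grey point per gene, with UCN2, VGF, NPTX1 and FOSL1 in colour and dashed lines at 1.5-fold. The 3 genes lie below the lower dashed line at means of 11.41, 10.31 and 9.47, and UCN2 lies apart from the grey points of similar mean.

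The promoters of UCN2 and VGF are shown because FOSL1 acts as part of AP-1, a factor that binds the heptamer TGANTCA, and because cAMP response elements are relatives of that motif bound by CREB. The 250 bases before the start site were read from a table of RefSeq promoters (GRCh38.p14), which was matched by symbol for 2 of the 3 genes, UCN2 and VGF. Capitals mark matches on either strand to the motifs searched, which are AP-1 (TGANTCA), the cAMP response element (TGACGTCA), the E-box (CACGTG), the CCAAT box (CCAAT) and the TATA box core (TATAA). The windows are chr3:48563782-48564031 for UCN2 and chr7:101165570-101165819 for VGF, both on the minus strand and printed 5′ to 3′ toward the start site. The motifs were chosen after both windows had been read.
UCN2: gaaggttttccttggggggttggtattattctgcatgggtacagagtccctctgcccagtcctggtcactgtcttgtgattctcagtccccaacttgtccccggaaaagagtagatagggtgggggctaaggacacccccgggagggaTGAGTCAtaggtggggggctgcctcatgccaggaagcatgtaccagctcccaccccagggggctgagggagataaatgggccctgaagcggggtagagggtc
VGF: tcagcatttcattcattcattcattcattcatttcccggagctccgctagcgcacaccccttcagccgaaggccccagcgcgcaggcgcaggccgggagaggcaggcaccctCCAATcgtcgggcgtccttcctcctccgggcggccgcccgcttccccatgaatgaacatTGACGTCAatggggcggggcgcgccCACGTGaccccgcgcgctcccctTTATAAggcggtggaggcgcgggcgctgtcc
UCN2 carried 1 AP-1 match, TGAGTCA, from 102 to 96 bases before the start site, and no match to the other 4 motifs. VGF carried no AP-1 match. It had 1 cAMP response element, TGACGTCA, from 79 to 72 bases before the start, with an E-box from 54 to 49 bases and a CCAAT box from 138 to 134 bases before it. The capitals nearest to the VGF start are 2 overlapping TATAA matches, 1 on each strand, between 31 and 26 bases before it.

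**Figure D3:**
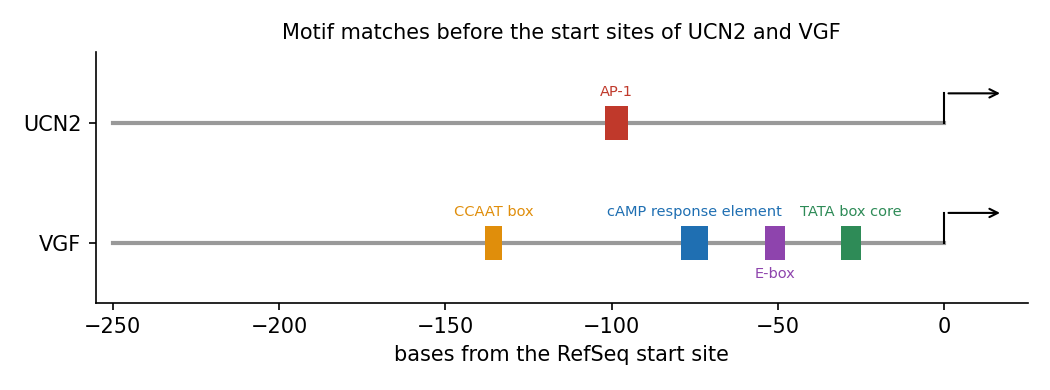
Positions of the motif matches, to scale, in the 250 bases before the RefSeq start sites of UCN2 and VGF (horizontal axis, bases from the start, bent arrow at 0). UCN2 has the AP-1 match alone, and VGF has the cAMP response element between the CCAAT box and the E-box and no AP-1 match.

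Of 35116 RefSeq windows of the same length, 6.57% held TGANTCA and 1.65% held TGACGTCA. The E-box was held by 6.34%, CCAAT by 32.0% and TATAA by 18.9%. The windows of both genes differed in base composition. That of UCN2 had a GC content of 58.4% with 3 CpG dinucleotides, and that of VGF had 66.0% with 27, beside medians of 58.0% and 11 over all windows. A letter match shows neither binding nor a cause of a difference.

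Matches to the AP-1 heptamer were then counted over the array. Among genes past the filter that had a window, 337 of 5996 (5.62%) held TGANTCA. Of the 57 genes at least 1.5-fold lower, 27 had a window and 6 of these (22.2%) held the heptamer. They were UCN2 and 5 genes named after their values were seen, CD68, COLQ, LYPD1, PC and RCAN3. UCN2 was chosen for its lower signal, and the motifs after its window was read, so its place among the 6 was fixed. The 22.2% thus partly restates these choices and was not tested. Of the 84 genes at least 1.5-fold higher, 54 had a window and 2 (3.70%) held it. The median difference was 0.0009 in the 337 genes with the heptamer and 0.0064 in the 5659 without it. The cAMP response element was held by 1 of the 27 lower genes, which is VGF, by 2 of the 54 higher genes and by 215 of the 5996 (3.59%). The place of VGF in that count was likewise fixed by the choice of genes and motifs.

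UCN2 was the sole measured ligand or receptor of the CRF family past the filter. Of the 7 family genes listed, 6 had a named probe set and 5 of these lay under the filter. The receptor CRHR2 had 7.84 in the control array and 7.65 in the other, a difference of -0.19. The related ligands UCN3 and CRH had differences of -0.27 and -0.10, UCN (urocortin) 0.08 and the binding protein CRHBP 0.0017. None of these 5 dim genes reached 1.5-fold. CRHR1 was not analysed here.

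The cAMP pathway that CRF receptors couple to showed small differences. Of 13 named genes 7 passed the filter, 4 above 0 and 3 below, with a median of 0.02 beside -0.0008 over all genes past the filter. None reached 1.5-fold. The adenylyl cyclases ADCY1 and ADCY7 had differences of -0.19 and 0.17 and ADCY6 had 0.08. MC1R, the melanocortin receptor of melanocytes, which also raises cAMP, had -0.12.

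Among granins, VGF stood beside a single other gene past the filter. PCSK1N, the proSAAS inhibitor of the convertase PCSK1, had 8.43 in the control array and 8.24 in the other, a difference of -0.19. The granins CHGA, CHGB, SCG2, SCG3 and SCG5 all lay under the filter, and all 5 had differences above 0, from 0.18 for CHGB to 0.78 for SCG3. SCG3, a granin that helps sort cargo into secretory granules, had 6.01 and 6.79. Under the filter, where 2.69% of genes were at least 1.5-fold higher, it was the 1 granin of that size. Of the receptors described for VGF peptides, the complement receptor C3AR1 was measured, at 6.38 and 6.11, also under the filter.

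Most of the named enzymes that mature such precursors lay above the filter. Of 14 listed, 12 were named and 10 passed, 7 below 0 and 3 above, with a median of -0.15. None reached 1.5-fold. The convertase PCSK1 was not among the 12 named genes. PCSK6 and PCSK4 passed with means of 8.35 and 8.53, near the filter. CPE and CPZ lay under it, with differences of 0.30 and -0.27. PCSK6, PCSK4, CPE and CPZ were named after their values were seen. QPCTL, a glutaminyl cyclase of the Golgi that caps peptide ends, had -0.40, and the cathepsin CTSL had -0.29. On the other side PAM, which amidates the ends of many peptides, had 0.19 and CPD, a carboxypeptidase that trims basic residues, had 0.18. FURIN, a convertase of the constitutive pathway named after its values were seen, had 10.61 and 10.51.

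The other neuronal pentraxins measured had differences closer to 0 than NPTX1. NPTX2, its closest relative among neuronal pentraxins, had 9.95 in both arrays with a difference of 0.0044. The membrane-bound receptor NPTXR had 8.50 and 8.38, a difference of -0.12. ADAM17, the protease that releases NPTXR from the membrane, had 10.36 in the control array and 10.66 in the other, a difference of 0.30. The difference of -0.81 for NPTX1 thus stood beside a value near 0 for NPTX2, and no test between them was possible. AMPA receptor subunits were not analysed here.

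The other peptide precursors past the filter lay below 0 without reaching 1.5-fold. Of 60 listed, 50 were named and 10 passed the filter, and these 10 were below 0, with a median of -0.26. NPPB, a natriuretic peptide precursor, passed through its control value alone (8.18 and 7.90), and the 9 that lay above the filter in both arrays had a median of -0.23. Over all genes past the filter, 50.1% were below 0. Of the 10, NPB, NPPC and GRP lay close to 0, at -0.0079, -0.0093 and -0.08, and were named after their values were seen. GAST, the precursor of gastrin, had -0.41 and STC1, the calcium-regulating stanniocalcin, had 11.37 and 10.99, a difference of -0.38. The vasodilator precursor ADM had -0.37 and NPW, neuropeptide W, -0.35, both named after their values were seen. These precursor genes are short, with a median span of 2982 bases, and short genes were lower in general on these arrays. With the trend on span removed, 8 of the 10 were below 0 and the median was -0.16. Of the 40 under the filter, 26 were below 0 and 14 above, and NTS, the precursor of neurotensin, was 1.63-fold higher.

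**Figure D4:**
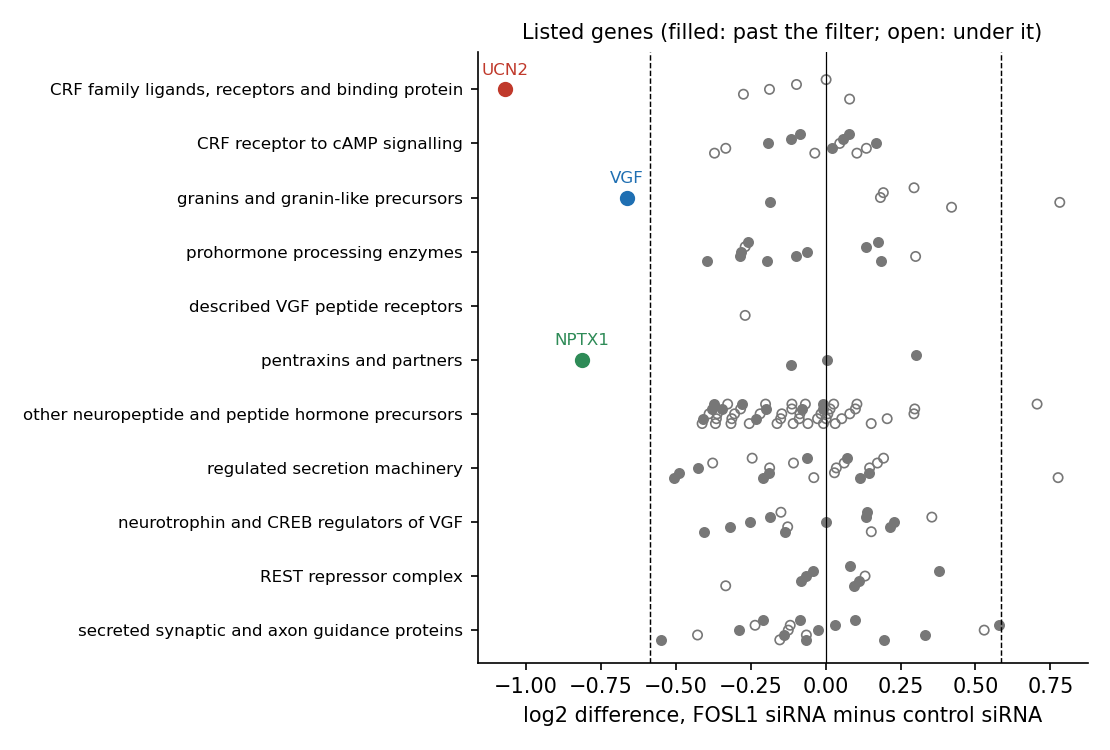
Log2 difference (horizontal axis) of each named gene in the 11 lists, filled where past the filter and open where under it, with UCN2, VGF and NPTX1 in colour and dashed lines at 1.5-fold. The 3 genes lie outside the lower dashed line, and every other filled point lies between the dashed lines. All 10 filled peptide precursors lie below 0, NPB and NPPC only just.

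Genes of regulated secretion had differences on both sides. Of 21 named genes 9 passed, 6 below 0 and 3 above, with a median of -0.19, and none reached 1.5-fold. UNC13D, which primes secretory lysosomes for fusion, had 8.32 and 7.82, a difference of -0.50, and passed the filter through its control value alone. The 8 genes above the filter in both arrays had a median of -0.13. Of these, the syntaxin STX1A had 9.0 and 8.51, a difference of -0.49. VAMP3 and SYTL2, of the vesicle fusion and docking machinery, had 0.14 and 0.12. CADPS2, which primes dense-core vesicles, lay just under the filter with 7.50 and 8.27 and was 1.71-fold higher. It was named after its values were seen.

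Regulators known for VGF in neurons lay on both sides of 0. Of 14 named neurotrophin and CREB genes 10 passed the filter, 5 on each side of 0, with a median of -0.07, and none reached 1.5-fold. CREB1, which binds cAMP response elements, had a difference of 0.0020. Its coactivators CRTC2 and CRTC3 had -0.32 and 0.22. The activity-induced genes ARC and EGR1 had -0.41 and 0.23. The REST complex, which silences neuronal genes in other cells, had 7 of 9 named genes past the filter and a median of 0.08. REST itself had 9.19 and 9.30, a difference of 0.11, and its corepressor RCOR3 had 0.38, whereas the histone methyltransferase EHMT2 and the deacetylase HDAC1 had -0.08 and -0.07.

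Secreted proteins of synapses and axon guidance lay on both sides of 0. Of 19 named genes 12 passed, 7 below 0 and 5 above, with a median of -0.05, and none reached 1.5-fold. NTN3 (netrin 3) had 8.54 and 7.99, a difference of -0.55, and THBS2, a thrombospondin, had -0.29. PTN, the growth factor pleiotrophin, had 7.79 and 8.37, a difference of 0.58, and NTN4 had 0.33. NTN3 and NXPH4 passed the filter through their control values alone and PTN through its value with FOSL1 siRNA. Of the 9 genes above the filter in both arrays, 5 were below 0 and 4 above, with a median of -0.03.

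Markers of other cells were given the same look, since all 3 genes are best known from neurons and endocrine cells. Of 5 named neuron markers 1 passed the filter, MAP2, with 10.06 and 10.58. The other 4, SYN1, STMN2, GAP43 and DCX, lay under it, and the summed signal was 10.63 with control siRNA and 11.00 with FOSL1 siRNA on the log2 scale. Of 6 named neuroendocrine markers 2 passed, NCAM1 at -0.15 and SYP at -0.07, and the summed signal of the 6 was 10.29 and 10.23. The 4 under the filter went both ways, with CHGA at 0.30 and CHGB at 0.18, and DDC at -0.07 and INSM1 at -0.15. Of 8 named markers of other skin and stroma cells 1 passed, LUM, with 11.05 and 11.53, and the summed signal was 11.46 and 11.80. The sum of the stroma list follows LUM, the brightest of its markers, while 5 of the 7 dimmer ones (PECAM1, EPCAM, VWF, CD14 and DCN) had differences from -0.30 to -0.18. The neuron sum likewise follows MAP2, and its 4 dimmer markers had differences from -0.09 to 0.17. The part of other cells in the results was not tested.

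The nearest named genes on the chromosome had differences smaller in size than those of the 3, as had most genes past the filter. Many of them do not lie directly beside the 3. Distances ran from 2954 bases (MIR4653 to VGF) to 558544 bases (BAIAP2 to NPTX1). Genes without a named probe set often lay between, 12 of them between VGF and UFSP1 and 11 between NPTX1 and BAIAP2. Any probe sets of these genes carry no symbol and were left out, so the genes have no values here. The 18 nearest named genes, 3 on each side of each gene in the RefSeq order, had differences from -0.46 to 0.24, and none was at least 1.5-fold lower. That size was reached by 0.766% of all genes past the filter and 2.1% of those under it. Its absence among 18 genes therefore says little about the neighbours. Of the 12 past the filter 9 were below 0, with a median of -0.11. Over all genes past the filter 50.1% were below 0, with a median of -0.0008. Near UCN2 on chromosome 3, UQCRC1, a subunit of respiratory complex III, had -0.12, ATRIP and CCDC51 had -0.23 and 0.21, and TMEM89 had the lowest difference of the 18. Near VGF on chromosome 7, CLDN15 and FIS1 had -0.10 and -0.18, TRIM56 and UFSP1 had 0.09 and 0.15, and MIR4653 had -0.11. Near NPTX1 on chromosome 17, MIR4730 had -0.26, CHMP6 -0.11 and BAIAP2 -0.05. SHISA5, MIR711, MOGAT3, ENDOV, RNF213-AS1 and BAIAP2-DT lay under the filter. In RefSeq the span of UCN2 overlaps that of PFKFB4, which had no named probe set here, and the share of its signal that could come from that gene was not tested.

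All 3 genes are short. The choice did not use span directly, but it used the differences, which were lower in short genes. The short span of the 3 is therefore not independent of the choice. Their RefSeq spans were 2064 bases for UCN2, 7444 for VGF and 9774 for NPTX1, and 5.37%, 19.4% and 24.3% of genes past the filter were shorter. Short genes had lower differences on these arrays. When genes past the filter were split into 10 equal groups by span, the group of shortest genes held UCN2. Its median difference was -0.14 and 3.49% of its genes were at least 1.5-fold lower. The median was -0.10 in the group that holds VGF and -0.08 in that of NPTX1, and it reached 0.10 in the group of longest genes. Measured from the median of its own group, UCN2 lay at -0.93, VGF at -0.57 and NPTX1 at -0.74. Within these groups UCN2 was the lowest of 745, VGF was 1 of the 2 lowest of 744 and NPTX1 1 of the 3 lowest of 744. The part of gene span in the differences was not tested beyond these values and the removal of its trend.

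**Figure D5:**
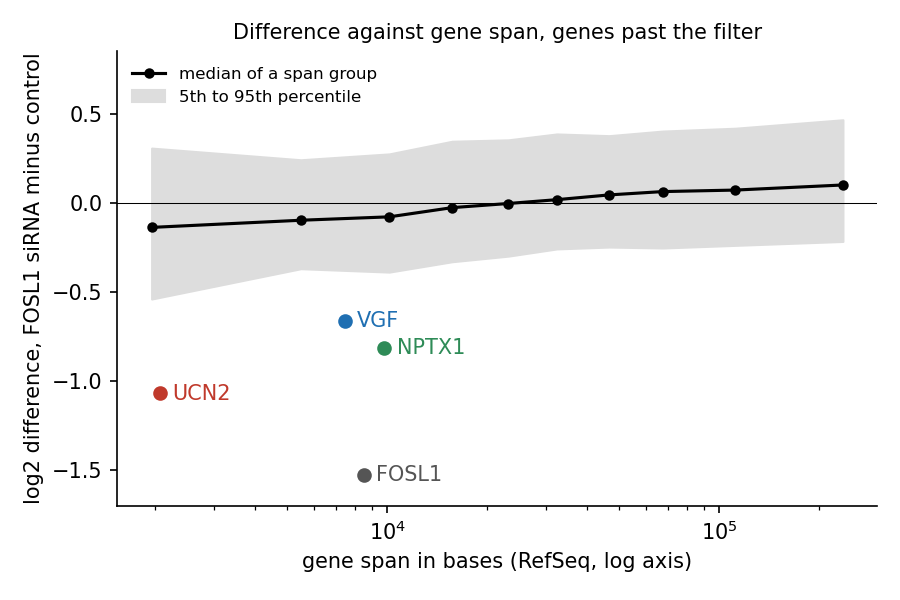
Log2 difference against gene span in bases (log axis). Black points give the median of each of the 10 span groups of genes past the filter, and the grey band runs from the 5th to the 95th percentile. The medians run from -0.14 in the group of shortest genes to 0.10 in that of the longest, and UCN2, VGF and NPTX1 lie below the band, as does FOSL1.

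For each of the 3, the genes with the most similar pair of values were taken by Euclidean distance over the log2 values of 2 arrays, which is a coarse measure and compares the brightness of different probe sets. For UCN2 they were SMAGP, a small membrane protein, at a distance of 0.288, DUSP10, a phosphatase of stress kinases, at 0.329, and NPIPB3 at 0.371. Their differences of -0.69, -0.78 and -0.58 were all smaller in size than that of UCN2. For VGF they were the microRNA genes MIR1238 and MIR4533 and LIMK1, a kinase that acts on cofilin, at distances of 0.115, 0.136 and 0.137. For NPTX1 they were MIR92B at 0.0473, with a difference of -0.87, TPSB2, a mast cell tryptase, at 0.193, and MYADM at 0.230.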

How the data were processed

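The deposited values are 1 number per probe set and array, taken as log2 intensities from their range (2.23 to 14.81). The log base, background correction and summarization are not given in the sources used here. Sorted values of both arrays differ by at most 0.0301 at the same rank, so a shift in total RNA could not be seen. The platform annotation gave 1 symbol to 16098 probe sets, and the other 37329 were left out. All 14884 genes matched RefSeq (GRCh38.p14) by Entrez ID, and the brightest probe set stood for a gene.

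With 1 array per group no test was run. Scripts used Python 3.11.15, pandas 2.3.3 and statsmodels 0.14.6 and were tested on simulated data. The 11 gene lists, 4 marker lists, the 3 genes and all rules were chosen with earlier results of these data known. The rule named listed genes at least 1.5-fold different past the filter or, failing these, up to 2 per direction, then chromosome neighbours and the 3 most similar genes. CRF family, granin and pentraxin genes are given in full, which was decided after their values were seen. Alternatives covered scaling, filters, trends, probe sets and thresholds. The number of arrays limits all precision.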

Additional observations from a re-analysis of the deposited data

How the results depend on the processing

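Under 5 alternatives (arrays centred on their medians, named genes normalized by quantiles, removal of a trend on mean log2 value or on gene span, and the mean of all probe sets), differences stayed within -1.08 to -0.98 for UCN2, -0.67 to -0.58 for VGF, -0.83 to -0.74 for NPTX1 and -1.54 to -1.45 for FOSL1. The last of these alternatives leaves the 3 genes as they are, since each has 1 probe set, and VGF at -0.58 with the span trend removed was just under 1.5-fold. The counts of genes at least 1.5-fold lower and higher, 57 and 84, were 213 and 284 with no filter, 23 and 15 when the filter stood at the 75th percentile, and 3 and 6 at a threshold of 2-fold. With the span trend removed 35 were lower, and among protein-coding genes alone, an alternative chosen after seeing the data, 33 were lower. Of 42 list values under alternatives 38 moved by less than 0.169. Several of these could not move. The mean of a list equals its median where 1 or 2 genes pass the filter, and dropping the filter leaves the pentraxin list as it is. With no filter the median was -0.14 for the CRF family, 0.19 for granins, 0.15 for neuron markers and -0.21 for other skin and stroma markers, since dim genes then entered lists that held 1 or 2 genes past the filter. No paired analysis was possible because each group has 1 array. Leaving out an array was not possible either.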

Other observations

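Dim peptide genes included a few with higher values after FOSL1 siRNA, given here as values and named after they were seen. NTS, the precursor of neurotensin, gave 5.83 in the control array and 6.54 in the other on the log2 scale, a difference of 0.71. SCG2, the granin secretogranin II, had 7.50 and 7.92, a difference of 0.42. Of the 7442 genes under the filter, 200 (2.69%) reached 1.5-fold toward higher and 156 (2.1%) toward lower values. Their median difference was -0.06 with 58.9% below 0, so the granins under the filter, all above 0, lay on the other side from most dim genes.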
